A study of Mus musculus with 6 samples.

Results

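Cytochrome c oxidase, complex IV of the respiratory chain, passes electrons from cytochrome c to oxygen and pumps protons across the inner mitochondrial membrane. Its catalytic core is built from mitochondrially encoded subunits, around which nuclear-encoded subunits are assembled. Some of these exist as alternative isoforms, such as subunit 6A, for which COX6A1 is the widespread form and COX6A2 the form known from heart and skeletal muscle. The 10 nuclear genes described here, of 18792 in the table, are Cox6a2, Cox6a1, Cox4i1, Cox5a, Cox5b, Cox6b1, Cox6c, Cox7a2, Cox7b and Cox8a, and all 10 had a row. They were listed by name, and the list was chosen by the values of the same table, because Cox6a2 led a cluster of cells in an earlier analysis of it. All levels that follow are therefore a description.

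The cells came from the spinal cord of mice, in 6 droplet-based scRNA-seq libraries with 3′ chemistry, of which 2 were from Nd6 mice with experimental autoimmune encephalomyelitis (EAE), 1 from Nd6 controls, 2 from WT mice with EAE and 1 from WT controls (healthy). Nd6 mice carry a point mutation of mt-Nd6, a mitochondrially encoded complex I subunit, and EAE, a model of multiple sclerosis-like disease, was induced by immunization with a myelin oligodendrocyte glycoprotein peptide. All mice were perfused with the transcription inhibitors actinomycin D and triptolide, and the digested tissue was cleared of myelin per the labels (debris per the study's methods). Per the study's methods, mice with EAE were adult females, whereas controls were of both sexes. The 13614 cells fall into 6 sets by a number in their names, lettered here A to F from the largest (4633 cells) to the smallest (809 cells), and no label says which set is which library. The study reports numbers of cells per genotype, but these were not used here to assign sets. The table was therefore treated as 1 sample without replicates, genotypes and disease states were not compared, and nothing was tested. The values are whole numbers whose totals per cell (687 to 1578, median 962) lie too close together for counts of molecules, so they are called deposited values, and the depth of a cell is unknown. A cell had 138 to 1287 genes with a value (median 547). Set medians were lowest in C (408.5 genes) and highest in A (639), and 18 cell barcodes were found in more than 1 set.

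Cells were gated by lineage markers, at least 3 of a list, and myeloid cells were divided into states. None of the 10 genes was used in a gate. The gates held 10679 myeloid cells and 832 cells of other lineages, with 1547 mixed cells (1518 of them with 3 or more myeloid markers) and 556 ungated cells set aside. The states were proliferating (147 cells), interferon-responsive (79), microglia-marked with raised Apoe (642), monocyte-like (1012), very high Apoe (4174), other myeloid (3272) and homeostatic microglia with low Apoe (1353), the last of which served as the reference for the other states. P2ry12, a purinergic receptor of resting microglia, had a mean of 0.119 in very high Apoe cells, 0.804 in microglia-marked cells with raised Apoe and 1.67 in homeostatic cells. Mki67, a proliferation gene, had 0.497 in proliferating cells, and the interferon-induced Isg15 had 1.39 in interferon-responsive cells, against 0.00443 and 0.0251 in homeostatic cells. Among the other lineages, oligodendrocytes (242 cells) had a mean of 1.40 for the myelin gene Mag, endothelial cells (249) had 2.42 for Cldn5, ependymal cells (128) had 0.844 for Foxj1, astrocytes (65) had 2.02 for Aqp4 and mural cells (61) had 10.3 for Rgs5. All of these genes are themselves gate markers, so their levels follow from the gating and do not test it. States are ranges rather than types, since 48 of the 79 interferon-responsive cells and 71 of the 147 proliferating cells had exactly the 3 markers needed, and 1210 myeloid cells had an Apoe value between 40 and 60, around the limit of 50.

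The states came unevenly from the sets. Of the homeostatic cells, 715 were in set D, 568 in set E, 39 in set B and 31 in set F, and none was in set A or C. Of the very high Apoe cells, 2791 were in set A and 1082 in set C, while set B held 965 of the monocyte-like, 126 of the proliferating and 47 of the interferon-responsive cells. Set B was the only set with 30 or more cells of every state, although only 39 of its cells were homeostatic. Some states can also be compared within sets D, E and F, and values within sets are given beside the pooled ones. Apoe, which divides several states, also differed by set outside the myeloid cells. Over sets with 30 or more cells, its means ran from 0.487 to 32.9 in oligodendrocytes and from 0.785 to 29.8 in endothelial cells. The effect of this on the states, whose lower Apoe limit was 10, was not tested.

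Sequences are shown for the isoform pair, because reads of Cox6a2 and Cox6a1 have to be told apart for the results that follow. Cox6a2 lies on chromosome 7 (GRCm38, chr7:128205435-128206366) and Cox6a1 on chromosome 5 (chr5:115345652-115348958), and both are annotated as protein-coding. Over 279 aligned coding bases the genes were 67.0% identical, with no run of identical bases longer than 12. The last 100 coding bases that align without a gap (77 identical) are printed here, from coding bases 188 to 287 of 294 in Cox6a2 and 233 to 332 of 339 in Cox6a1 (GENCODE M21), with identical bases in capitals.
Cox6a2: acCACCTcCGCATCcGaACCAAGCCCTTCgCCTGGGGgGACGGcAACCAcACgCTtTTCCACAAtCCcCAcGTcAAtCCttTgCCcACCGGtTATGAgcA
Cox6a1: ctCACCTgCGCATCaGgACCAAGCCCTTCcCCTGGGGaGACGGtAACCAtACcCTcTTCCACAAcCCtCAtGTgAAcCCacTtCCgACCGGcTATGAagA
No other annotated gene had a transcript at least 90% identical to Cox6a2 over 100 bases. Near copies of other members that had a row of their own were rare, with means over all cells of 0.000294 for Gm11633 (like Cox5a), 0.00147 for Gm11273 (like Cox5b) and 0.000661 for Cox6c2 (like Cox6c). Cox6a1 and Cox6c had 1 further such copy each and Cox7b had 4, none with a row.

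Promoters of complex IV genes are known for sites of NRF-1 and GABP (also called NRF-2), factors that act on many nuclear genes of the respiratory chain. Promoters from RefSeq (GRCm38.p6, 250 bases before to 50 bases after the gene's start) were at hand for 7 of the 10 genes and not for Cox6a2, Cox4i1 and Cox6c. The core of the NRF-1 motif, GCATGCG on either strand, was found in 1 of the 7, Cox6a1, and in 3.58% of 32851 promoters. The GABP motif CCGGAAG was found on either strand in 3 of the 7 (Cox6a1, Cox6b1 and Cox8a, in the last at 2 places) and in 8.86% of all promoters. The promoters of Cox6a1, which holds both motifs, and Cox8a, which holds GABP matches only, are printed 5′ to 3′ on the gene's strand with the matches in capitals, where GABP reads CTTCCGG on the opposite strand and the 2 NRF-1 matches overlap, 1 on each strand.
Cox6a1 (chr5:115348909-115349208, minus strand): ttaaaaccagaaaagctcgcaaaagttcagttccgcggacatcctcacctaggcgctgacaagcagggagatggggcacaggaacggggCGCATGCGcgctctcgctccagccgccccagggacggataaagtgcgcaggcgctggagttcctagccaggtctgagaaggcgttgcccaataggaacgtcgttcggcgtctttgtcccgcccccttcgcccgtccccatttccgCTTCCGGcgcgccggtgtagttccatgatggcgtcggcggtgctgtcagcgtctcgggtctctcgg
Cox8a (chr19:7217567-7217866, minus strand): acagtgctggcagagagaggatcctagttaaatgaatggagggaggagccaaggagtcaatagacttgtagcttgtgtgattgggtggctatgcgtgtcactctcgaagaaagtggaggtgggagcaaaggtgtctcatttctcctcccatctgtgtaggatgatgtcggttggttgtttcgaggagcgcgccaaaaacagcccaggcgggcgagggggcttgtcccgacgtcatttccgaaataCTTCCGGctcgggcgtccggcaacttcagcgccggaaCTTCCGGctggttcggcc
A match is a stretch of letters and not a measured site.

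Cox6a2 was a sparse gene, with a value in 675 of 13614 cells (4.96%) and a highest value of 4, and most cells with a value were myeloid. It had a value in 584 of 10679 myeloid cells (5.47%) and in 9 of 832 cells of other lineages (1.08%), and most of the others were among the mixed cells (74, 4.78% of them). Among the myeloid states the percent of cells with a value was highest in proliferating cells, at 19.0% (exact binomial 95% interval 13 to 26.3%), and in interferon-responsive cells, at 17.7% (10 to 27.9%), whose intervals overlap over most of their length. Microglia-marked cells with raised Apoe followed with 9.19% (7.07 to 11.7%), monocyte-like cells with 6.52%, and very high Apoe and other myeloid cells with 5.32% each. Homeostatic cells were lowest, with 21 of 1353 cells (1.55%, 0.963 to 2.36%). The intervals cover counting error only, and cells of 1 animal or library are not replicates.

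**Figure D1:**
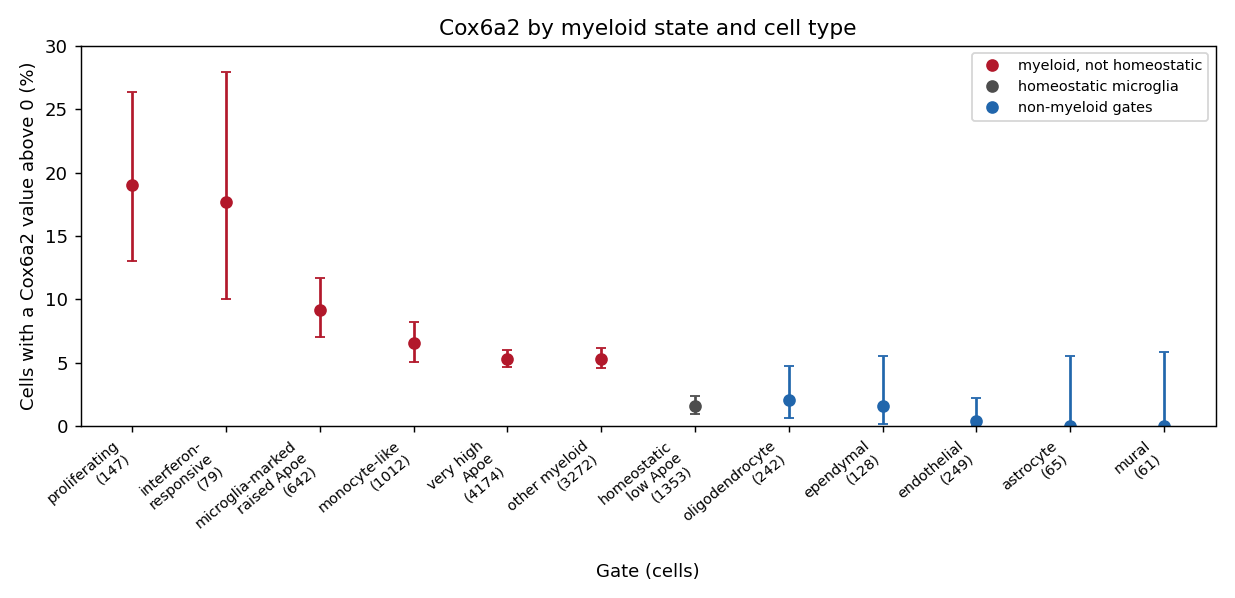
Percent of cells with a Cox6a2 value above 0 (vertical axis) in each gate (horizontal axis, with its number of cells), with exact binomial 95% intervals that cover counting error only. Proliferating (19.0%) and interferon-responsive cells (17.7%) are highest, homeostatic cells stand at 1.55%, and astrocytes and mural cells are at 0.

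The mean Cox6a2 value followed the same order apart from the first places. It was 0.241 in interferon-responsive cells and 0.218 in proliferating cells, against 0.0177 in homeostatic cells, which gives ratios of 13.6 and 12.3. The mean was 0.109 in microglia-marked cells with raised Apoe (ratio 6.15), 0.0711 in monocyte-like cells (4.01), 0.0611 in other myeloid cells (3.45) and 0.0565 in very high Apoe cells (3.19). All 6 ratios share the same homeostatic cells, so they are not independent. The order was much the same among cells with 400 to 800 genes, but not among those with fewer or more. Among cells with 400 to 800 genes the percent was 21.4% in interferon-responsive, 17.8% in proliferating, 9.51% in microglia-marked raised Apoe, 6.36% in monocyte-like, 5.96% in other myeloid, 5.65% in very high Apoe and 1.34% in homeostatic cells. With over 800 genes it was 22.6% in proliferating, 13.4% in microglia-marked raised Apoe and 12.2% in other myeloid cells. It was 10.4% in very high Apoe, 10.0% in monocyte-like, 6.67% (1 of 15 cells) in interferon-responsive and 3.73% in homeostatic cells. With under 400 genes, microglia-marked raised Apoe had 0 of 49 cells and proliferating 0 of 4. Homeostatic cells had 0.889% there, and the other states were above that. Over all myeloid cells the percent was 3.04% in cells with under 400 genes, 5.79% with 400 to 800 and 10.3% with over 800.

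Outside the myeloid cells, Cox6a2 had a value in 5 of 242 oligodendrocytes (2.07%), 2 of 128 ependymal cells (1.56%), 1 of 249 endothelial cells (0.402%) and 1 of 8 B or plasma cells. It had none in 65 astrocytes, 61 mural cells or 39 T or NK cells, for which the upper 95% bounds were 5.52%, 5.87% and 9.03%. Tyrobp, a myeloid adaptor gene that most of these lineages should lack, had a mean of 0.599 in the 832 non-myeloid cells and 3.48 in myeloid cells. The 832 cells include 10 neutrophils and 39 T or NK cells, and neutrophils and NK cells can make Tyrobp themselves. Per 1000 of summed Tyrobp there were 22.1 of Cox6a2 in non-myeloid cells (from 9 cells) and 17.6 in myeloid cells. The 9 cells are too few to compare these ratios, and the part of free RNA in them was not tested. Of skeletal muscle, which is known to make COX6A2, the 6 genes with a row (Ckm, Mb, Tnnt3, Mylpf, Atp2a1 and Tnni2) summed to a mean of 0.0340 in proliferating, 0.0253 in interferon-responsive and 0.0177 in homeostatic cells. The proliferating sum was Tnni2 alone, and Tnni2 had 0.0127 in interferon-responsive and 0.0140 in homeostatic cells. Tnni2 had a value in 180 of 10679 myeloid cells, Mylpf in 18, Ckm in 9, Tnnt3 in 7, Atp2a1 in 6 and Mb in 1. Mb, the oxygen-binding myoglobin, was listed at 0 in all 3 of these states and had a value in 8 of 128 ependymal cells (6.25%).

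Cox6a2 also differed between the sets within a state, as widely as between states. In homeostatic cells it had a value in 6 of 715 cells of set D (0.839%, interval 0.309 to 1.82%), 7 of 568 cells of set E (1.23%, 0.497 to 2.52%) and 0 of 31 cells of set F (upper bound 11.2%), but in 8 of 39 cells of set B (20.5%, 9.30 to 36.5%). The interval of set B lies wholly above those of sets D and E. In other myeloid cells, the only state with 30 or more cells in every set, the percent was 7.72% in set A, 6.43% in B, 5.64% in C, 1.83% in D, 1.02% in E and 0.694% in F. Microglia-marked cells with raised Apoe had 11% in set A, 13.2% in B, 5.56% in C and 1.67% in F. Sets A, B and C were thus above sets D, E and F in other myeloid cells, and over all myeloid cells the sets ran 6.64% in A, 7.71% in B, 4.08% in C, 1.13% in D, 1.26% in E and 2.49% in F.

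Within set B alone the order of the states was different. The mean Cox6a2 value there was 0.319 in interferon-responsive cells, 0.238 in proliferating cells, 0.149 in microglia-marked cells with raised Apoe, 0.0734 in other myeloid, 0.0674 in monocyte-like and 0.0602 in very high Apoe cells, against 0.205 in the 39 homeostatic cells. The ratio over homeostatic cells was 1.56 for interferon-responsive and 1.16 for proliferating cells. It turned below 1 for the other 4 states, at 0.727 for microglia-marked raised Apoe, 0.358 for other myeloid, 0.328 for monocyte-like and 0.294 for very high Apoe cells. The interferon-responsive interval in set B (25.5%, 13.9 to 40.3%) overlaps that of the homeostatic cells, and so does the proliferating one (20.6%, 13.9 to 28.8%). Sets D and E, which held most homeostatic cells, gave a ratio of other myeloid over homeostatic cells of 1.63 and 0.727. In set F the order was again another, with a mean of 0.05 in microglia-marked cells with raised Apoe (2 of 120 cells), 0.0465 in very high Apoe cells (9 of 215 cells, 4.19%) and 0.00694 in other myeloid cells (1 of 144 cells), against 0 of 31 homeostatic cells, which allows a share of up to 11.2%. The pooled homeostatic level thus came mostly from sets D and E, and state and set cannot be told apart in the pooled ratios. Nor can state be told apart there from the genotype and disease state of the libraries behind the sets. Leaving out set B altogether, the percent of interferon-responsive cells with Cox6a2 was 6.25% and the monocyte-like ratio was 12.2. Both rest on few cells, as set B held 47 of the 79 interferon-responsive and 965 of the 1012 monocyte-like cells.

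**Figure D2:**
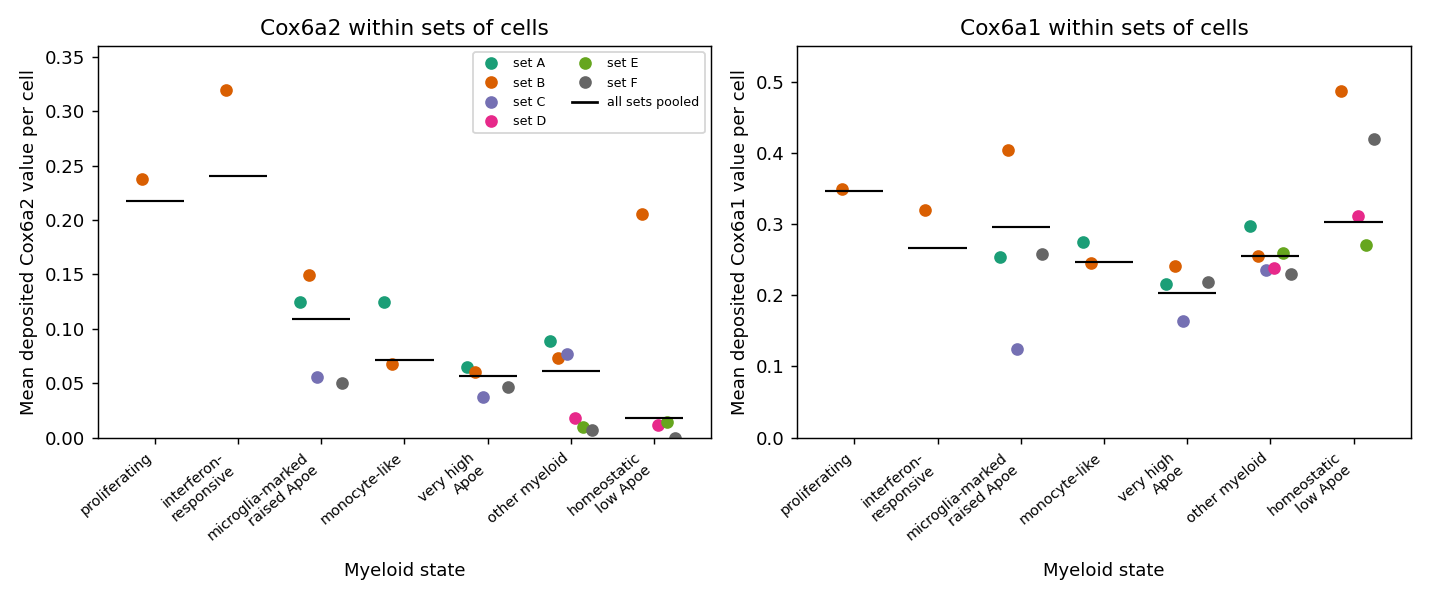
Mean deposited value per cell (vertical axes) of Cox6a2 (left) and Cox6a1 (right) in each myeloid state (horizontal axes), with 1 point for each set that holds 30 or more cells of the state and a line for all sets pooled. Homeostatic cells of set B (Cox6a2 0.205) stand far above those of sets D (0.0112) and E (0.0141).

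Interferon genes that were not used in a gate were, as a sum, high in the same states, and in the homeostatic cells of the same set. The summed mean of 11 such genes, among them Ifi27l2a, Bst2 and Mx1, was 5.37 in interferon-responsive and 4.87 in proliferating cells, 2.45 in monocyte-like, 1.74 in microglia-marked raised Apoe, 1.64 in other myeloid and 1.03 in very high Apoe cells, against 0.554 in homeostatic cells. Within homeostatic cells it was 4.05 in set B, 0.438 in D, 0.405 in E and 1.58 in F. In proliferating cells the sum came mainly from Ifi27l2a (2.21), Ifitm3 (1.22) and Bst2 (0.864). There 6 of the 11 genes reached the minimum mean, all of them 1.5-fold or more above homeostatic cells (43.5% of all genes compared). Others were far below interferon-responsive cells, such as Mx1 (0.0136 against 0.0886), Slfn5 (0.0340 against 0.380) and Ifi47 (0.0272 against 0.165). The part of the interferon genes in the Cox6a2 values was not tested.

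The 5 genes whose means were most like those of Cox6a2 were Ms4a6c (r = 0.891), Ifi207 (0.881), AB124611 (0.874), Cd72 (0.863) and Gm26740 (0.859), by Pearson correlation of log2(mean + 0.01) over 34 strata (a gate within a set, 30 cells or more) among 8803 genes with a value in at least 1% of cells. Over the 22 myeloid strata alone the same genes had r between 0.783 and 0.866. Ms4a6c encodes a membrane protein of the MS4A family, Ifi207 an interferon-inducible protein and Cd72 a lectin-like receptor of B cells and macrophages. Cd72 had a mean of 0.316 in interferon-responsive and 0.374 in proliferating cells, against 0.02 in homeostatic cells. The other complex IV genes had r with Cox6a2 between -0.0983 (Cox6c) and 0.316 (Cox7b) over all strata, and between 0.201 (Cox6a1) and 0.672 (Cox4i1) over the myeloid ones. The 5 genes were picked for the highest r, so any other gene lies below them over all strata. No rank of the members among the 8803 genes is given, so their r cannot be called low or high. The strata share sets and depth, so these values describe the table only.

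Cox6a1, the widespread isoform, had its highest levels outside the myeloid cells. It had a value in 2866 cells (21.1%), and over the gates of 50 or more cells its mean was highest in oligodendrocytes at 0.541 and lowest in very high Apoe cells at 0.203. Among the states it was 0.347 in proliferating, 0.296 in microglia-marked raised Apoe, 0.266 in interferon-responsive, 0.256 in other myeloid and 0.246 in monocyte-like cells, against 0.302 in homeostatic cells. No state differed from homeostatic cells by 1.5-fold or more, but very high Apoe cells were just inside the limit (ratio 0.671). By set, homeostatic cells had 0.487 in B, 0.312 in D, 0.271 in E and 0.419 in F. In oligodendrocytes Cox6a1 was above the myeloid cells of the same set in each of the 5 sets with 30 or more oligodendrocytes, at 0.611 against 0.226 in set A, 0.535 against 0.269 in B, 0.576 against 0.171 in C, 0.692 against 0.291 in D and 0.458 against 0.271 in E.

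The share of Cox6a2 in the summed values of both isoforms was highest where Cox6a2 was. It was 47.5% in interferon-responsive (19 of 40), 38.6% in proliferating (32 of 83), 26.9% in microglia-marked raised Apoe, 22.4% in monocyte-like, 21.8% in very high Apoe and 19.3% in other myeloid cells, against 5.54% in homeostatic cells (24 of 433). In all non-myeloid cells it was 3.51%, against 20.1% in all myeloid cells. Because a 3′ assay does not measure the transcripts of different genes with equal efficiency, the share compares gates and is not a ratio of molecules. By set, all myeloid cells had 24.2% in A, 24.5% in B, 21.1% in C, 4.35% in D, 4.82% in E and 12.4% in F, and homeostatic cells had 29.6% in B, 3.46% in D and 4.94% in E. The share thus moved with the set as Cox6a2 itself did.

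**Figure D3:**
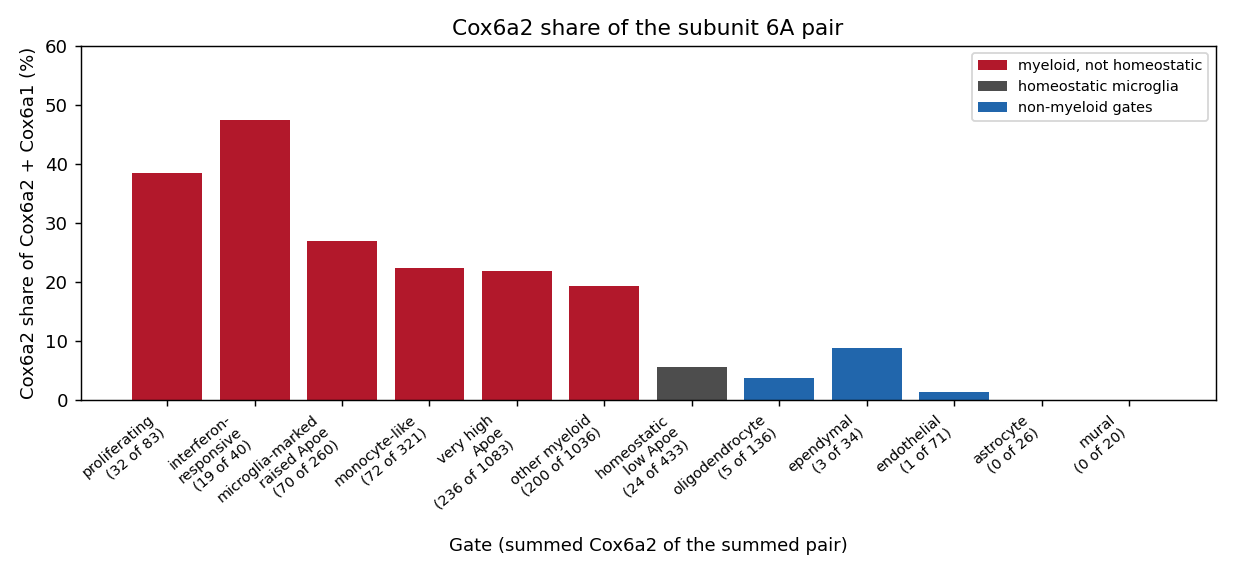
Cox6a2 as a percent of the summed deposited values of Cox6a2 and Cox6a1 (vertical axis) in each gate (horizontal axis, with the summed Cox6a2 value of the summed pair). Interferon-responsive cells reach 47.5% and proliferating cells 38.6%, against 5.54% in homeostatic cells and 0 in astrocytes and mural cells.

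Both isoforms were found in the same cells. Of the 584 myeloid cells with a Cox6a2 value, 140 also had a Cox6a1 value (24.0%), against 20.4% of myeloid cells without Cox6a2, and cells with Cox6a2 had more genes (median 624 against 531). In interferon-responsive cells 9 of 14 cells with Cox6a2 had Cox6a1 (64.3%), against 10.8% of those without, at a similar number of genes (median 647.5 against 651). These are 14 cells, most of them from set B.

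The other members are widely expressed subunits. COX4I1 is the largest nuclear subunit and binds ATP, COX5A and COX5B face the matrix, COX6B1 faces the intermembrane space near the cytochrome c site, and COX6C, COX7A2, COX7B and COX8A are small subunits that cross the membrane. Cox4i1 had a value in 7646 cells (56.2%), Cox8a in 6188 (45.5%) and the remaining 7, without Cox6a2, in 2806 (Cox7b, 20.6%) to 4379 (Cox6c, 32.2%). Over the 12 gates of 50 or more cells the highest mean of a gene was 2.16 (Cox4i1) to 3.18 (Cox7b) times its lowest, for all members but Cox6a2, which was at 0 in 2 gates. By gate, the means of all 10 members summed to 6.18 in proliferating, 4.89 in interferon-responsive, 4.48 in monocyte-like, 4.17 in microglia-marked raised Apoe, 4.06 in other myeloid and 3.61 in very high Apoe cells, against 3.45 in homeostatic cells.

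Proliferating cells had the highest mean of the myeloid states for 8 of the 10 genes. Of the 10 genes, 7 were 1.5-fold or more above homeostatic cells, where 60.4% of all 4007 genes compared differed by 1.5-fold either way and 43.5% were higher. Apart from Cox6a2 these were Cox5a, with a mean of 0.422 against 0.166 (ratio 2.55), Cox5b with 0.578 against 0.254 (2.28), Cox8a with 1.37 against 0.644 (2.13), Cox7a2 with 0.612 against 0.288 (2.13), Cox6b1 with 0.714 against 0.343 (2.08) and Cox7b with 0.374 against 0.206 (1.81). Cox6c was just inside the limit at 1.48, and Cox6a1 and Cox4i1 were close to homeostatic cells, with ratios of 1.15 and 1.14. The median ratio of the members was 2.11, against 1.35 over all genes compared. Other lists of the respiratory chain did likewise, with 21 of 36 nuclear complex I genes higher, 6 of 9 of complex III and 11 of 14 of complex V (median ratios 1.68, 1.80 and 1.92), none lower, and 7 of 9 assembly factors of complex IV higher, among them Cmc1 (2.83), Cox19 (2.74) and Cox20 (2.41). Of the 147 proliferating cells 126 were in set B, whereas most homeostatic cells were in sets D and E. State and set therefore cannot be told apart in these pooled counts, those of the other lists included. Within set B, where 62.3% of genes differed, 3 members were higher in proliferating than in homeostatic cells, Cox5b (3.45), Cox7b (1.82) and Cox6b1 (1.70), and Cox8a had 1.32 against 1.05.

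The other states had between 1 and 4 members higher. Interferon-responsive cells had 4 of 10, with a background (the percent of all genes compared that passed the limit) of 57.9% either way and 38.3% higher. These were Cox6a2, Cox7a2 (0.506 against 0.288, ratio 1.76), Cox5a (0.291 against 0.166, 1.76) and Cox6b1 (0.582 against 0.343, 1.70). In a gate of 79 cells these ratios are imprecise. The percent of cells with a value was 27.8% (interval 18.3 to 39.1%) against 13.6% (11.8 to 15.5%) for Cox5a, whereas the intervals overlapped for Cox7a2, at 35.4% (25.0 to 47.0%) against 23.1% (20.8 to 25.4%), and for Cox6b1, at 40.5% (29.6 to 52.1%) against 27.9% (25.5 to 30.3%). These intervals cover counting error in cells pooled over sets only. They do not make the Cox5a call firmer, as its ratio was 0.786 within set B and 1.00 without set B. Monocyte-like cells had 3 higher, with a background of 52.5% either way and 24.5% higher, namely Cox6a2, Cox5a (0.418 against 0.166, 2.52) and Cox7b (0.347 against 0.206, 1.68). Other myeloid cells had Cox6a2 and Cox5a (0.285 against 0.166, 1.72), with a background of 48% either way and 10.2% higher. In microglia-marked cells with raised Apoe (background 34.9% either way, 17.4% higher) and in very high Apoe cells (52.9% either way, 18.2% higher) Cox6a2 alone passed. The members' median ratios were 1.21 and 1.03 there, against 0.961 and 0.809 over all genes compared. In these pooled ratios no member was 1.5-fold lower in any state, where the background of lower genes was 16.8% in proliferating, 17.6% in microglia-marked raised Apoe, 19.7% in interferon-responsive, 28% in monocyte-like, 34.7% in very high Apoe and 37.8% in other myeloid cells. The number of members past the limit either way was 2 in microglia-marked cells with raised Apoe without set A, D or F and 3 without set C, 2 in very high Apoe cells without set B, C or E, and 0 in other myeloid cells without set B. Within set B, members were also lower than in homeostatic cells. There 2 were higher and 6 lower in very high Apoe cells (65.8% of all genes either way), 2 and 1 in microglia-marked cells with raised Apoe (58.1%), 4 and 2 in interferon-responsive cells (66.2%), 2 and 3 in monocyte-like cells (66.2%), 3 and 0 in proliferating cells (62.3%) and 1 and 3 in other myeloid cells (68.8%).

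**Figure D4:**
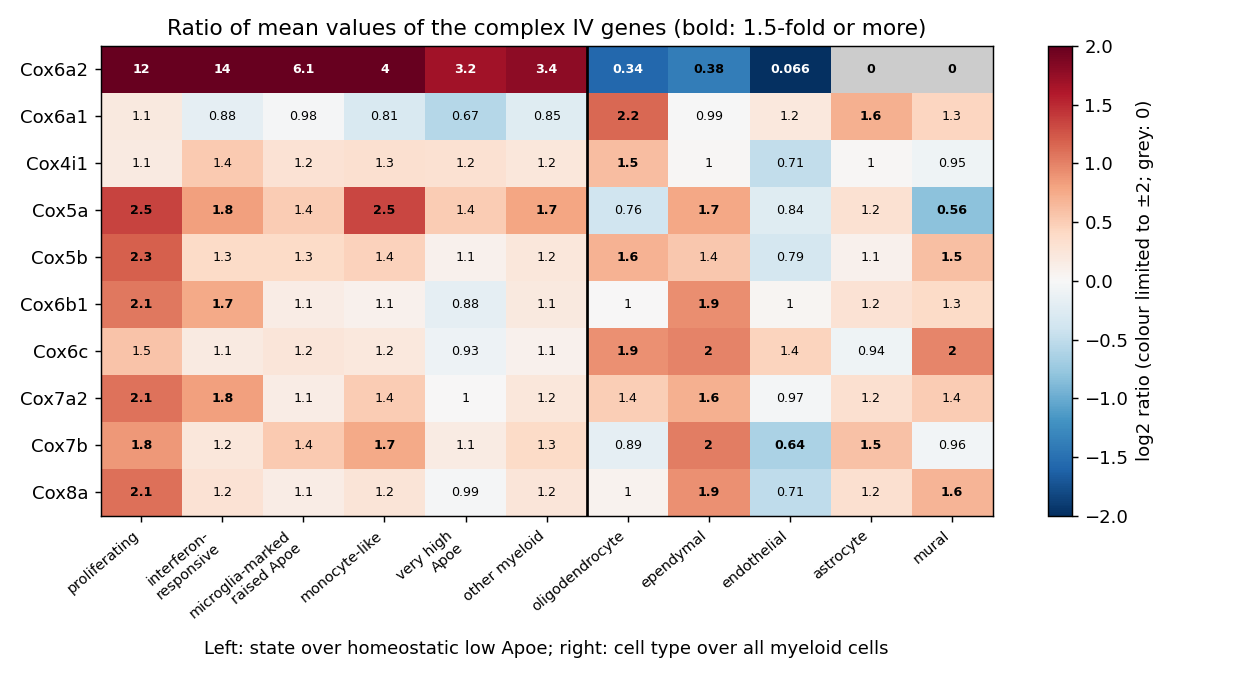
Ratio of mean deposited values of the 10 genes (rows), for myeloid states over homeostatic cells (left of the line) and for lineages over all myeloid cells (right), with colour on a log2 scale limited to 2 either way. Proliferating cells have 7 ratios of 1.5 or more, and Cox6a2 is low or at 0 in all 5 non-myeloid lineages.

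Cox5a, like Cox6a2, differed between the sets. In homeostatic cells it had a mean of 0.487 in set B, 0.154 in D, 0.160 in E and 0.129 in F. Within set B its ratio over homeostatic cells was 0.870 in monocyte-like, 0.863 in proliferating, 0.786 in interferon-responsive and 0.703 in other myeloid cells, so the direction of all 4 pooled ratios of 1.5 or more turned. Over all myeloid cells Cox5a had 0.368 in set B and between 0.152 (E) and 0.256 (A) elsewhere. Cox5b was lowest in set B among homeostatic cells, at 0.179 in B, 0.249 in D, 0.261 in E and 0.323 in F. The interferon-responsive calls other than Cox6a2 rested on set B, since without it the ratio was 0.662 for Cox7a2, 1.00 for Cox5a and 1.10 for Cox6b1.

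Oligodendrocytes, the myelin-forming cells, had the highest mean of Cox6a1 and of Cox4i1 among the 12 gates. Of the 10 members 4 were higher and 1 was lower than in myeloid cells, with a background of 70.4% either way, 32.3% higher and 38.1% lower. Cox6a1 was higher (0.541 against 0.244, ratio 2.22), as were Cox6c (0.798 against 0.424, 1.88), Cox5b (0.471 against 0.291, 1.62) and Cox4i1 (1.48 against 0.970, 1.53, or 1.47 with values scaled per cell), while Cox6a2 was lower (0.0207 against 0.0611, 0.338). By set, Cox6a2 in oligodendrocytes was 0.0556 against 0.0720 in myeloid cells in set A, and 0.0465 against 0.0872 in B. It had no value in oligodendrocytes of sets C, D and E. Cox6c was above the myeloid cells of the same set in all 5 sets with enough oligodendrocytes, by 1.74 times in E to 2.38 times in C. The members summed to 5.41 in set A, 5.33 in B, 5.39 in C, 5.41 in D and 5.54 in E for oligodendrocytes, against 3.91, 4.46, 3.16, 3.46 and 3.34 for the myeloid cells of those sets. The oligodendrocyte sum was above the myeloid sum in all 5 sets.

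Ependymal cells, which carry motile cilia, had 6 members higher and Cox6a2 lower, with a background of 82.9% either way, 59.8% higher and 23.1% lower. The higher ones were Cox7b (0.523 against 0.256, ratio 2.04), Cox6c (0.844 against 0.424, 1.99), Cox6b1 (0.672 against 0.354, 1.90), Cox8a (1.33 against 0.705, 1.88), Cox5a (0.445 against 0.262, 1.70) and Cox7a2 (0.523 against 0.321, 1.63). The median ratio of the members, 1.66, lay below that of all genes compared, 2.02. Endothelial cells had the lowest sum of the 10 members among the 12 gates of 50 or more cells (3.34), with none higher and 2 lower, Cox7b (0.165 against 0.256, 0.642) and Cox6a2 (0.00402 against 0.0611, 0.0657), where 70.9% of genes differed either way, 51.1% were higher and 19.7% lower. Cox7b in endothelial cells was 0.0217 in set A and between 0.156 and 0.231 in sets B to E, so without set A it was no longer past the limit. Mural cells had Cox6c (0.836 against 0.424, 1.97), Cox8a (1.13 against 0.705, 1.60) and Cox5b (0.443 against 0.291, 1.52) higher and Cox5a (0.148 against 0.262, 0.563) lower and no Cox6a2, with a background of 73.4% either way, 42.8% higher and 30.5% lower. Astrocytes, of which there were 65, had Cox6a1 (0.400 against 0.244, 1.64) and Cox7b (0.385 against 0.256, 1.5) higher and no Cox6a2, with a background of 72.5% either way, 28.1% higher and 44.3% lower. Cox6a1 in astrocytes depended on the gate, with a ratio of 0.826 when 4 markers were needed. With a set left out, the members past the limit were 3 in oligodendrocytes without set E, 3 in mural cells without set C, 1 in astrocytes without set B or E and 1 in endothelial cells without set A or B.

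Of 6 other nuclear subunit genes with a row, Cox4i2 and Cox6b2 were each high in a single lineage. Cox4i2, the isoform of subunit 4 known from oxygen-sensing tissues, had a value in 25 of 61 mural cells (41.0%, interval 28.6 to 54.3%) and a mean of 0.721, against 41 of 10679 myeloid cells (0.384%) and 0.00384. Cox6b2, known from testis, had a value in 9 of 128 ependymal cells (7.03%, 3.27 to 12.9%), against 52 myeloid cells (0.487%). Cox7a1, the muscle form of subunit 7A, had a mean of at most 0.0156 in any gate of 50 or more cells. Cox7c, a widespread subunit, was highest in oligodendrocytes among the 12 gates of 50 or more cells (0.938 against 0.426 in myeloid cells, ratio 2.20), and Ndufa4, a subunit at the edge of the complex, was also higher there (0.5 against 0.280, 1.79).

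The mitochondrially encoded core genes mt-Co1, mt-Co2 and mt-Co3 together were lower in all 6 states than in homeostatic cells. Their summed mean was 1.62 in proliferating, 1.81 in interferon-responsive, 1.79 in microglia-marked raised Apoe, 1.93 in monocyte-like, 1.65 in very high Apoe and 2.26 in other myeloid cells, against 3.37 in homeostatic cells. mt-Co1, which encodes the catalytic subunit, had 1.31 in proliferating cells against 2.92 in homeostatic cells (ratio 0.450), while the 10 nuclear genes together were higher in proliferating cells. This too went with the set, as homeostatic cells had a summed mt-Co value of 1.95 in set B, 3.32 in D, 3.62 in E and 1.90 in F, and other myeloid cells had 1.75 in A, 1.95 in B, 1.71 in C, 3.54 in D, 3.62 in E and 2.77 in F. Within set B proliferating cells had 1.60 and homeostatic cells 1.95. The nuclear sum within set B was 6.17 in proliferating, 5.45 in interferon-responsive, 4.81 in microglia-marked raised Apoe, 4.48 in monocyte-like, 4.28 in other myeloid and 4.05 in very high Apoe cells, against 5.26 in homeostatic cells.

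**Figure D5:**
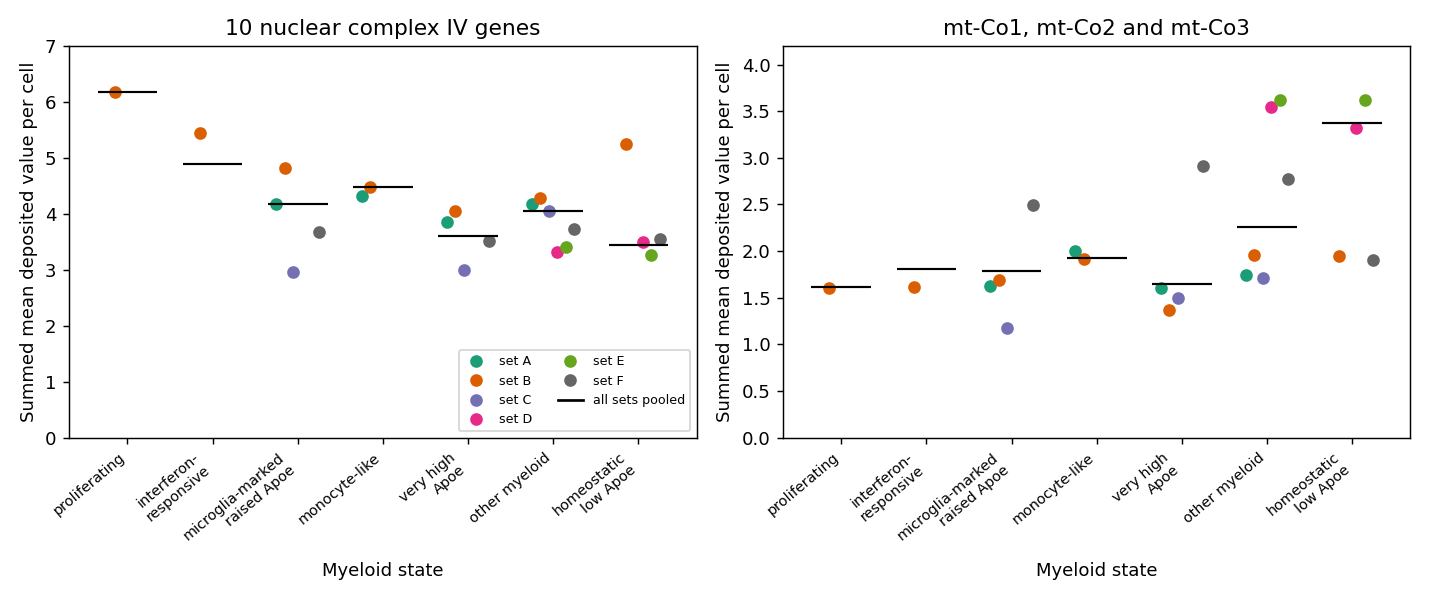
Summed mean deposited value per cell (vertical axes) of the 10 nuclear complex IV genes (left) and of mt-Co1, mt-Co2 and mt-Co3 (right) in each myeloid state (horizontal axes), with 1 point for each set that holds 30 or more cells of the state and a line for all sets pooled. The nuclear sum is 6.18 in proliferating and 3.45 in homeostatic cells, and the mt-Co sum is 1.62 in proliferating and 3.37 in homeostatic cells.

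Clusters computed without any complex IV gene gave Cox6a2 its highest means in cells led by histone genes and in cells led by Isg15. Of 13 clusters its mean was highest in a cluster of 310 cells led by the histone genes Hist1h1b and Hist1h2ap (0.165, a value in 14.5% of cells) and next in 1721 cells led by Isg15, Eno1 and Hmox1 (0.121, 9.82%). The cluster that held 93.3% of the homeostatic cells (1991 cells, led by Hpgd, Slc2a5 and Abca9) had 0.0151, and the lowest means were in clusters led by Ndufa4l2 and Rgs5 (0.00971) and by Hmcn1 and Ptprg (0.01). Of the 310 cells 263 were in set B.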

How the data were processed

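Spinal cord cells of 6 libraries were profiled by scRNA-seq. Per the submitters' processing notes and the study's methods, the authors used Cell Ranger 7.1.0 with GRCm38, counted intronic reads too, and joined all libraries with Seurat 4.3.0.1. They deposited 1 table of whole-number values, treated here as a score per gene and cell because totals per cell are too even for molecule counts. How the deposited score was made is not given in the sources used here. No count test was therefore run, depth is unknown, and intervals (exact Clopper-Pearson, 95%) cover counting error only.

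The 10 genes, the gene lists and the gates were chosen with earlier results of these data known. A lineage needed 3 markers with a value, a larger summed value than the myeloid list and more markers than any other lineage. States were assigned in order: proliferating (3 cycle genes), monocyte-like (2), interferon-responsive (3), then homeostatic (3 homeostatic genes, Apoe under 10), raised Apoe (3, Apoe from 10), very high Apoe (Apoe from 50) and other. Mixed cells were left out and no doublet caller was run. Means per cell were compared as ratios, and a gene was called from 1.5-fold either way among genes with a mean of at least 0.05 in either group. Sets needed 30 cells. A further gene of the interferon list is not reported here. Named genes were the members, the lists and the 5 genes most like Cox6a2. Clusters (Seurat 5.3.0 in R 4.3.3, 5000 variable features, 50 components, 20 neighbours, resolution 0.3) left out all complex IV genes. Values came from Python 3.11.15, numpy 2.4.6, scipy 1.17.1 and pandas 2.3.3, and the ratios were tested on simulated data, where genes set as unchanged also passed 1.5-fold, most often in the smallest of the gates simulated. Alternatives were another scale, marker number, Apoe limits, genes per cell, filters, mixed cells, clusters, fold, minimum mean and sets left out. The restriction to set B was added after the data had been seen.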

Additional observations from a re-analysis of the deposited data

How the results depend on the processing

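The restriction to set B changed most. There the Cox6a2 ratio over homeostatic cells was 0.727 for microglia-marked raised Apoe, 0.294 for very high Apoe, 0.328 for monocyte-like and 0.358 for other myeloid cells (direction turned), 1.56 for interferon-responsive and 1.16 for proliferating cells. The members past 1.5-fold numbered 3 (1 pooled), 8 (1), 5 (3) and 4 (2) in the first 4 of these states and 3 (7) in proliferating cells, with directions and the percent of all genes given in the report. The Cox5a ratio turned to 0.786 in interferon-responsive, 0.870 in monocyte-like, 0.863 in proliferating and 0.703 in other myeloid cells. The percent of cells with Cox6a2 was 20.5% in homeostatic, 13.2% in microglia-marked raised Apoe and 6.43% in other myeloid cells. With Apoe limits of 20 and 100 the Cox6a2 ratios were 2.59 (microglia-marked raised Apoe), 1.83 (very high Apoe), 7.1 (interferon-responsive), 2.10 (monocyte-like), 6.42 (proliferating) and 1.68 (other myeloid), homeostatic cells had 2.66%, and the members past the fold were 2 in very high Apoe and 1 in other myeloid cells. With 2 markers the ratios were 3.94 (microglia-marked raised Apoe, 6.99% of cells) and 6.92 (interferon-responsive), with 2 members past the fold in both and 3 in oligodendrocytes. With 4 markers 1 member passed in astrocytes, where Cox6a1 turned to 0.826. With clusters in place of gates the interferon-responsive ratio was 8.02 (9.82% of cells) and very high Apoe cells had 6.41%, and 2 members passed in microglia-marked raised Apoe, very high Apoe and interferon-responsive cells and 1 in astrocytes. Mixed cells counted as myeloid gave 2 in microglia-marked raised Apoe cells, and 400 to 800 genes or the stated filters gave 2 in very high Apoe cells. Scaled values gave 4 in endothelial cells. A minimum mean of 0.1 gave 0 in very high Apoe, 1 in other myeloid and 1 in endothelial cells. At 2-fold the counts were 1 in interferon-responsive, other myeloid, astrocyte, endothelial and mural cells and 2 in oligodendrocytes and ependymal cells. The causes were not tested.

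Leaving out each set in turn, the Cox6a2 ratio ranged from 4.41 to 7.14 (microglia-marked raised Apoe), 2.24 to 4.64 (very high Apoe), 9.84 to 14.5 (interferon-responsive), 2.84 to 12.2 (monocyte-like, highest without set B), 8.86 to 12.5 (proliferating) and 2.63 to 3.50 (other myeloid). The percent with Cox6a2 ranged from 0.989 to 2.35% (homeostatic), 7.005 to 10.9%, 3.83 to 5.92%, 6.25 to 20.6%, 6.28 to 14.9%, 18.9 to 19.9% and 3.62 to 5.74% in the order of states just given. The members past the fold ranged from 1 to 3, 1 to 2, 4 to 5, 2 to 4, 7 to 8 and 0 to 3 in that order, 3 to 5 in oligodendrocytes, 1 to 3 in astrocytes, 6 to 8 in ependymal, 1 to 3 in endothelial and 3 to 5 in mural cells. The Cox7a2 ratio in interferon-responsive cells ranged from 0.662 (turned, without set B) to 2.15. Values without set B rest on few interferon-responsive and monocyte-like cells, as it held 47 of 79 and 965 of 1012. Scaling to 10000 per cell kept the direction of every single-gene ratio of the members that was past 1.5-fold. No paired analysis was possible because no column or label gives a cell a replicate number and nothing was tested. No limit from depth can be stated, as the files do not hold it.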

Other observations

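The summed mean of 12 genes, among them Gapdh, Tpi1 and Ldha, was 6.85 in proliferating, 5.66 in interferon-responsive, 5.53 in monocyte-like, 4.62 in other myeloid, 4.19 in microglia-marked raised Apoe and 3.52 in very high Apoe cells, against 2.39 in homeostatic cells. Of these genes 10 of 12 were 1.5-fold or more higher in monocyte-like than in homeostatic cells (24.5% of all genes compared) and 2 were lower, Hk2 (0.357) and Eno1 (0.664). Hk2, the first enzyme of the pathway, was 1.5-fold or more lower in 5 of the 6 states, between 0.231 (very high Apoe) and 0.535 (interferon-responsive), and Eno1 was also lower in very high Apoe cells (0.436). By set, homeostatic cells had 4.15 in B, 2.41 in D, 2.23 in E and 2.71 in F, so the set B cells were above the others here as well. Within set B the sum was 6.98 in proliferating, 6.47 in very high Apoe, 6.32 in interferon-responsive, 5.59 in monocyte-like, 5.29 in other myeloid and 4.93 in microglia-marked raised Apoe cells, against 4.15 in homeostatic cells, whereas other myeloid cells were below homeostatic cells within sets D (2.23 against 2.41) and E (2.10 against 2.23). The 36 nuclear complex I genes summed to 6.59 in homeostatic cells of set B, 4.99 in D, 4.91 in E and 4.90 in F.

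Cox4i2 in mural cells was seen in every set, with a value in 6 of 17 cells in set A, 4 of 12 in B, 5 of 8 in C, 3 of 10 in D, 4 of 8 in E and 3 of 6 in F. The mixed cells, 901 of which had 3 or more oligodendrocyte markers, had Cox6a2 in 4.78% of cells pooled over sets. This is close to the 5.47% of myeloid cells and above the 2.07% of oligodendrocytes. Within set A, which held 910 mixed cells, it was 6.15% in mixed cells and 5.56% in 54 oligodendrocytes. Within set B it was 4.46% and 4.65% (43 oligodendrocytes). In sets C and D mixed cells had 1.10% and 1.39%, and oligodendrocytes had none. The pooled difference from oligodendrocytes thus cannot be told apart from the set.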
